A study of Mus musculus with 4 samples.

Results

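The integrated stress response genes examined here were 10 genes, Atf4, Atf5, Ddit3, Trib3, Chac1, Asns, Atf3, Ppp1r15a, Sesn2 and Gdf15, found by symbol among the 56748 genes of the count table. They were taken by name, by a rule that uses no measured value but was set with earlier results of these data known, and all 10 passed the expression filter, among 15320 genes tested. Ddit3 was listed under a pair of identifiers, and the second record, 105 bases long and inside the first, held 0 counts in every sample and was not used. RNA came from lungs of female BALB/cJ mice, 7 weeks of age when 2000000 4T1-FLuc cells, a luciferase-expressing mouse triple-negative breast cancer (TNBC) line, were injected through the tail vein. The saline group (2 samples, called PBS control in the treatment label) was compared with the ADC/cmLumiOpto group (2 samples), and the methods of the study give 4 samples per group. The ADC was an anti-CD276 antibody carrying the microtubule inhibitor mertansine (DM1), at 16 mg/kg in the labels and 8 mg/kg in the methods. The gene therapy cmLumiOpto, an antibody-targeted exosome-AAV whose light-gated channel depolarizes mitochondria, was given with its luminescent substrate ViviRen at 2 mg/kg, and the treatment label adds the abbreviation Olap. Treatment lasted 3 weeks by the series description, and the labels speak of harvested tumor cells where the methods speak of dissociated lung tissue.

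The integrated stress response is the pathway by which cells answer amino acid shortage, misfolded protein in the endoplasmic reticulum, double-stranded RNA, heme deficiency and mitochondrial damage. These signals activate a small group of kinases, all of which phosphorylate the translation initiation factor eIF2α. General protein synthesis then slows while the mRNAs of a few factors, ATF4 above all, are translated more. ATF4 and its partners then switch on genes for amino acid supply, for the phosphatase that ends the response and, when stress persists, for cell death. Since ATF4 itself is controlled largely at translation, the level of its mRNA need not follow its activity.

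The libraries held 15263375 to 19675436 counts. Expression is given as CPM, counts scaled to the normalised library size, and a floor of 3 counts corresponds to 0.152 to 0.197 CPM of the raw totals (counting error only). The label of the cells is a carcinoma, and the epithelial markers Krt8 and Krt18 were abundant in all 4 samples. Of the receptor genes that are low in triple-negative carcinoma, Pgr had at most 4 counts, whereas Esr1 was at 11.2 to 19.6 CPM and Erbb2 at 51.4 to 87.5 CPM. Markers of lung epithelium were detected as well and separated the groups. The summed level of 7 lung epithelium markers was 2668 and 409.2 CPM in saline 1 and 2 and 11592 and 7632 CPM in ADC/cmLumiOpto 1 and 2, with 7 of 7 genes higher. The summed level of 8 leukocyte markers was 647 to 1222 CPM in the saline group and 1322 and 7343 CPM after treatment. Most of the higher sum, that of ADC/cmLumiOpto 2, came from the neutrophil genes S100a8 and S100a9, at 3089 and 3814 CPM. These genes also made up much of the other sums, at 454.0 and 504.7 CPM in saline 1 and 170.3 and 210.4 CPM in saline 2. In ADC/cmLumiOpto 1 they were at 422.3 and 561.8 CPM, so the groups overlapped for S100a8 but not for S100a9. Fibroblast markers (6 genes) summed to 3539 to 5123 CPM in the saline group and 1457 to 1761 CPM after treatment, and 6 proliferation genes to 1042 to 1047 and 593 to 657 CPM. The 6 carcinoma epithelium markers summed to 2947 to 3310 and 2847 to 2917 CPM. Of these, Krt8 and Krt18 were lower in both treated samples, Krt7 and Cdh1 were higher, and Epcam and Krt19 overlapped. As epithelial genes they do not set carcinoma cells apart from lung epithelium. The 5 endothelium markers summed to 371 to 454 and 437 to 647 CPM. None of the markers in these lists was at 0 in all samples, while Pgr was at 0 in both saline samples. The share of reads from mitochondrially encoded genes was 1.13% and 1.17% for saline and 2.09% and 1.84% for ADC/cmLumiOpto. The part of these shifts in the values of the 10 genes was not tested, and in bulk RNA fewer cells of a type cannot be told apart from less RNA per cell.

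**Figure D1:**
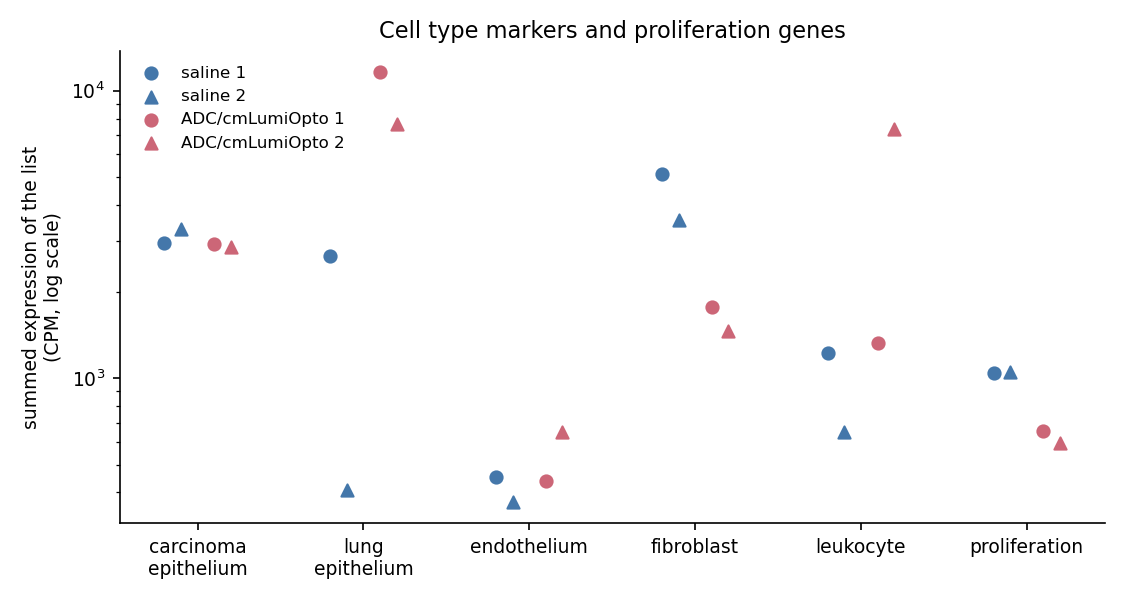
Summed expression of each marker list (CPM, log axis) in each sample, with circles for replicate 1 and triangles for replicate 2. The lung epithelium sums separate the groups (409.2 and 2668 CPM against 7632 and 11592 CPM). The sums of the carcinoma epithelium list, whose genes moved in both directions, lie between 2847 and 3310 CPM in all 4 samples.

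In the comparison of ADC/cmLumiOpto with saline, 5 of the 10 genes lay higher in both treated samples than in both saline samples. They were the bZIP factors Atf4 (1.30-fold), Ddit3 (1.54-fold), Atf5 (1.90-fold) and Atf3 (just over 2-fold) and the secreted factor Gdf15 (2.56-fold, from few counts). The classical ATF4 targets Asns, Trib3 and Chac1 had treated means below the saline means, but only for Trib3 did the groups not overlap. Asns, Chac1 and the feedback regulators Ppp1r15a and Sesn2 overlapped between the groups. None of these differences passed an adjusted p of 0.05 in the quasi-likelihood test of edgeR, which called 0 of 10 members and 0.0% of all genes tested. At an unadjusted p under 0.05, the same edgeR test gave 2 members higher, Atf5 and Atf3, and 0 lower. The background was 11.0% of all genes tested higher and 12.2% lower. DESeq2 and the edgeR exact test each called 2 members higher at an adjusted p under 0.05, again Atf5 and Atf3, against 3.78% and 3.96% of all genes higher and, with 0 members, 5.05% and 3.68% lower. Without the expression filter the quasi-likelihood test also called Atf5 and Atf3 (background 4.79% higher and 4.05% lower). The groups did not overlap for 5 members that were higher and 1 that was lower (Trib3), where 28.1% and 28.8% of all genes tested did so in each direction. The fitted log2 fold change (log2FC) was above 0 for 7 members and below 0 for 3, against 52.0% and 48.0% of all genes, with a median of 0.23 over the members and 0.028 over all genes tested.

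**Figure D2:**
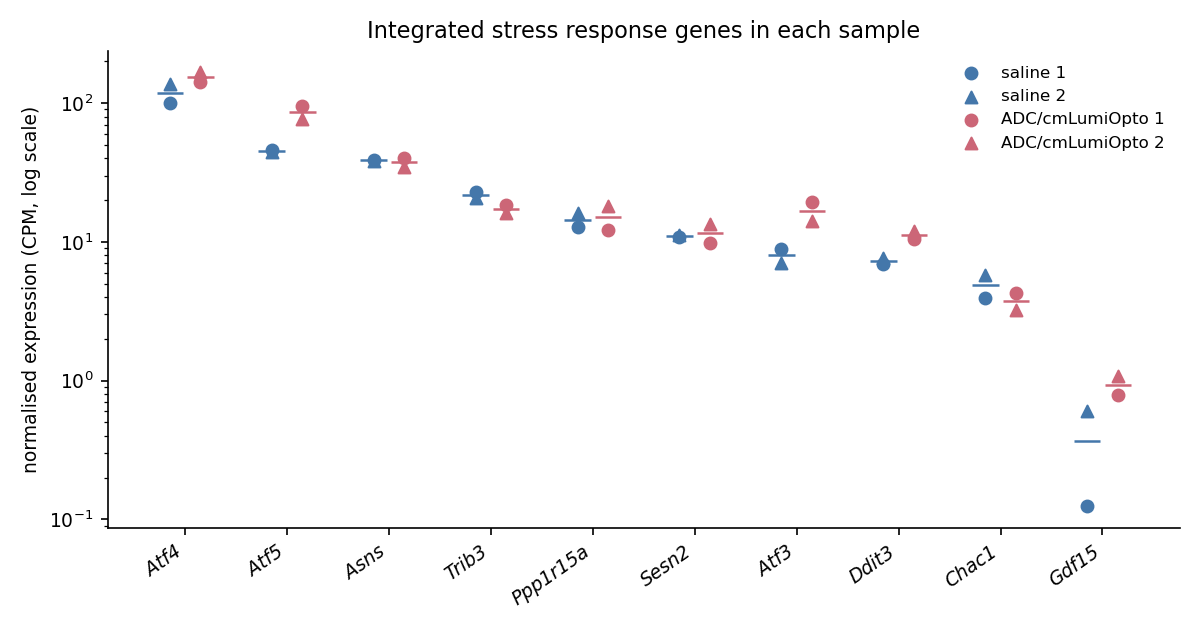
Normalised expression (CPM, log axis) of the 10 members in each sample, ordered by their saline mean, with a line at each group mean. For Atf5 both treated samples (94.8 and 76.8 CPM) lie above both saline samples (45.7 and 44.6 CPM), and for Asns the 4 samples lie between 34.8 and 40.0 CPM.

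Atf5 (ENSMUSG00000038539), a bZIP factor that is translated under eIF2α phosphorylation and drives mitochondrial chaperone genes, lies on the minus strand of chromosome 7 (44461680 to 44466082, positions of all members as listed in the deposited table, whose build is mm39 by the submitters' notes). It had 731 and 662 counts in saline 1 and 2 and 1673 and 1574 in ADC/cmLumiOpto 1 and 2, or 45.7, 44.6, 94.8 and 76.8 CPM. The treated samples were both well above the saline samples, which differed from each other by little. The means were 45.2 ± 0.762 CPM (SD, n = 2) and 85.8 ± 12.8 CPM (SD, n = 2). This gave a log2FC of 0.93 (standard error 0.18, 1.90-fold), with an adjusted p of 0.116 by the quasi-likelihood test of edgeR and rank 184 among the p-values of all genes tested. This adjusted p was the smallest that any gene reached, and other genes shared it, Slc7a11 among them. The adjusted p was 0.00183 in DESeq2 and 0.00548 in the edgeR exact test, and ranged from 7.48e-04 to 0.383 over all alternatives. With each sample left out in turn the log2FC stayed between 0.77 and 1.07. Atf5 overlaps Nup62 and Il4i1 on the opposite strand, and whether the counting used strand is not given in the sources used here. Nup62 had 1728, 1724, 1262 and 1526 counts, fewer in both treated samples, and Il4i1 had at most 6.

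Atf3 (ENSMUSG00000026628, chromosome 1, 190902493 to 190950236), a stress-induced bZIP factor that dampens inflammatory and ATF4-driven transcription, was the member with the other low p. It was at 8.88 and 7.08 CPM for saline and 19.3 and 14.2 CPM for ADC/cmLumiOpto, from 105 to 341 counts. Both treated samples exceeded both saline samples, and the spread within each group was smaller than the gap between the groups. Its log2FC was 1.07 with a standard error of 0.29, and the quasi-likelihood test of edgeR gave an adjusted p of 0.124. It was called by DESeq2 with an adjusted p of 0.0284 and by the edgeR exact test with one of 0.0428, and the alternatives together spanned 0.0148 to 0.470. Sample by sample, leaving one out gave 0.84 to 1.27.

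Ddit3 (ENSMUSG00000025408, chromosome 10, 127126643 to 127132157) encodes CHOP, the factor that turns a prolonged response toward cell death. Counts were 111 and 113 for saline, then 184 and 245 for ADC/cmLumiOpto, or 6.94, 7.62, 10.4 and 11.9 CPM. The groups did not overlap. For the log2FC of 0.62 (standard error 0.27), the adjusted p was 0.233 by the quasi-likelihood test, 0.259 by DESeq2 and 0.289 by the exact test. Ddit3 overlaps Mars1, a tRNA synthetase gene on the opposite strand, which had 1269, 1064, 1209 and 1389 counts.

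Atf4 (ENSMUSG00000042406, chromosome 15, 80139385 to 80141742), the central factor, was the most abundant member. It stood at 100.1 and 137.3 CPM for saline and 141.7 and 166.5 CPM for ADC/cmLumiOpto. Saline 2 and ADC/cmLumiOpto 1 were almost level, although the groups did not overlap. The log2FC was 0.38 (standard error 0.21, adjusted p = 0.315 in edgeR) and went from 0.15 to 0.62 with single samples left out. The 10 genes can be ranked per length, as RPKM (CPM per 1000 bases of the listed gene length). In saline lungs Atf4 came first with 50.3 RPKM, followed by Atf5 with 22.7, Asns with 14.2 and Trib3 with 10.2 RPKM. These neighbours did not overlap in their 2 samples. Ppp1r15a, Ddit3 and Atf3 followed at 4.93, 4.25 and 3.70 RPKM. The samples of Ppp1r15a and Ddit3 overlapped, as did those of Ddit3 and Atf3, while those of Atf3 and Sesn2 did not. Sesn2 (3.17 RPKM) and Chac1 (2.97 RPKM) also overlapped, and Gdf15 came last with 0.198 RPKM. After treatment Atf3 and Ddit3 stood above Ppp1r15a in mean level, at 7.79, 6.53 and 5.16 RPKM. The samples of Atf3 and Ddit3 overlapped, as did those of Ddit3 and Ppp1r15a.

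Gdf15 (ENSMUSG00000038508, chromosome 8, 71082043 to 71085106) encodes a stress-induced cytokine that acts on appetite through the brainstem. It was barely detected, with 2 and 9 counts for saline and 14 and 22 for ADC/cmLumiOpto, the first of them below the floor of 3. Both treated values were higher. The log2FC of 1.36 had a standard error of 0.81 (adjusted p = 0.348 in edgeR) and depended on saline 1, since it was 0.61 without that sample and 2.84 without saline 2.

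The promoters of the target genes are shown for the element through which the pathway acts. ATF4 pairs with C/EBP proteins on the C/EBP-ATF response element, searched here as TGATGNAA on either strand in RefSeq windows of GRCm38.p6 from 250 bases before to 50 bases after each listed start. All 10 members had such a window (12 windows in all), and 4 members held the element, against 3.97% of 32851 windows of the same length. Those 4 were Atf3, whose treated samples were higher, and Asns, Chac1 and Trib3, whose treated samples were not. Atf3 and Chac1 share the same 8 letters and are shown at length because their matches lie upstream, outside annotated exons. Asns and Trib3 are shown by the match and its flanks, which lie in an annotated exon. Capitals mark the match.
Atf3, chr1:191183386-191183493, minus strand, match 110 bases before the start: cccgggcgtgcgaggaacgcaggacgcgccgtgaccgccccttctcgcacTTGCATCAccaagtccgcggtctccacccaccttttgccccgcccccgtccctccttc
Chac1, chr2:119350999-119351106, plus strand, match 193 bases before the start: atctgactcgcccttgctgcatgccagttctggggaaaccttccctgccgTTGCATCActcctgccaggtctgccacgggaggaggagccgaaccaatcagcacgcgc
Asns, chr6:7693215-7693242, minus strand, match 23 bases before the start: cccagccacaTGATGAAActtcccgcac
Trib3, chr2:152344029-152344056, minus strand, match 15 bases after the start: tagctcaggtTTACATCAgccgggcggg
A match is a description of the letters and not a measured binding site, and its absence from a window says nothing of the factor. For Ppp1r15a the window held the cAMP response element TGACGTCA, 12 bases before the start, an element found in 1.79% of all windows. The AP-1 element TGANTCA was found in 7.81% of windows and in that of Ddit3, and no member had more than 1 match. The Ppp1r15a match is shown with the bases before it.
Ppp1r15a, chr7:45526269-45526329, minus strand: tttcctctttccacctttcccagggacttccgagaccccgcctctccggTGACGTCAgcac

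Asns (ENSMUSG00000029752, chromosome 6, 7675169 to 7693254) makes asparagine and is a standard readout of ATF4 activity. It was at 39.1 and 38.5 CPM for saline and 40.0 and 34.8 CPM for ADC/cmLumiOpto, and the groups overlapped. Its log2FC was -0.053 (standard error 0.17, adjusted p = 0.878 in edgeR). The sign turned under upper-quartile normalization (0.033) and without ADC/cmLumiOpto 2 (0.040). At 571 or more counts per sample this was one of the better measured members.

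Trib3 (ENSMUSG00000032715, chromosome 2, 152179342 to 152185952) encodes a pseudokinase induced by ATF4 and CHOP that restrains AKT. It had 22.8 and 20.8 CPM for saline and 18.4 and 16.2 CPM for ADC/cmLumiOpto. It was the 1 member whose treated samples both lay below the saline samples. The fit gave a log2FC of -0.33 (standard error 0.21, adjusted p = 0.372 in edgeR). Across the alternatives it was negative throughout, from -0.54 to -0.25, with adjusted p from 0.214 to 0.658.

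Chac1 (ENSMUSG00000027313, chromosome 2, 119181710 to 119184862), an enzyme that degrades glutathione and is induced by ATF4 with CHOP, gave 63 and 86 counts for saline and 76 and 66 for ADC/cmLumiOpto. Normalised values were 3.94, 5.80, 4.31 and 3.22 CPM, and the groups overlapped. Its log2FC of -0.37 had a standard error of 0.39 (adjusted p = 0.597 in edgeR) and shrank to -0.064 when saline 2 was left out.

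Ppp1r15a (ENSMUSG00000040435, chromosome 7, 45172340 to 45175692) encodes GADD34, the inducible subunit of the phosphatase that reverses eIF2α phosphorylation. Its values were 12.9 and 16.1 CPM for saline and 12.2 and 18.1 CPM for ADC/cmLumiOpto, and the saline values lay within the range of the treated values. Sesn2 (ENSMUSG00000028893, chromosome 4, 132219343 to 132237812), an inhibitor of mTORC1 under amino acid shortage, was at 10.8 and 11.2 CPM and at 9.75 and 13.5 CPM. ADC/cmLumiOpto 2 was the highest sample for both genes, and Tulp2, which overlaps Ppp1r15a on the opposite strand, had at most 5 counts. Sesn2 overlaps Gm12981 on the same strand, and the counts of Gm12981 are not given here. The log2FC values of Ppp1r15a and Sesn2 were 0.067 and 0.078 (standard errors 0.29 and 0.28), with adjusted p of 0.910 and 0.892 in edgeR. Without ADC/cmLumiOpto 2 they became -0.25 and -0.18.

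**Figure D3:**
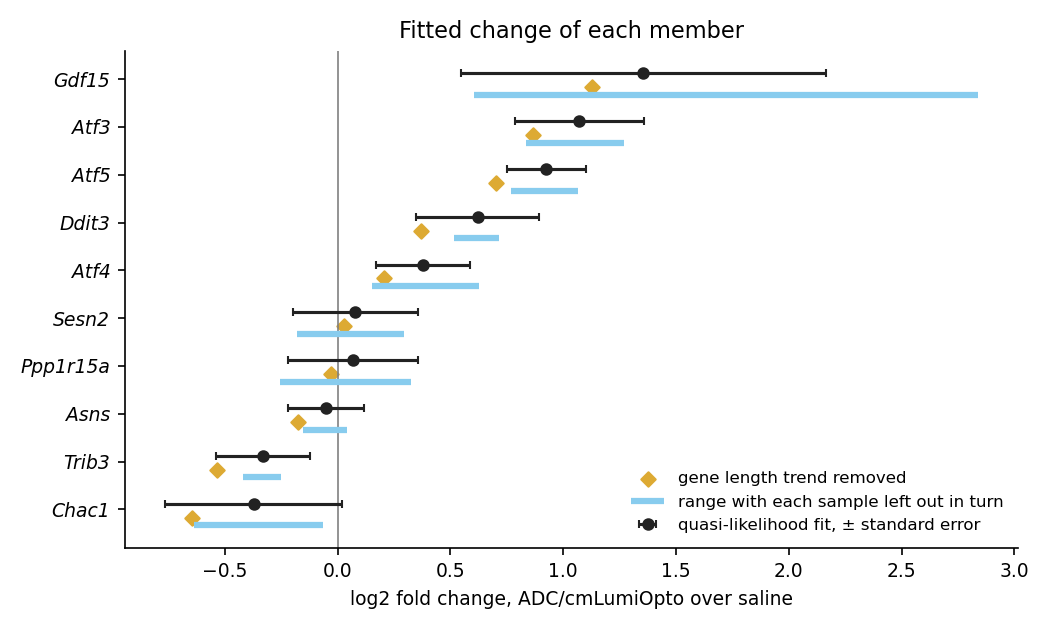
Log2 fold change of each member, ADC/cmLumiOpto over saline, from the quasi-likelihood fit (black, bars of 1 standard error), with the gene length trend removed (diamonds) and as a range with each sample left out in turn (blue). Atf5 and Atf3 stay above 0 throughout (0.70 and 0.84 at the lowest), and the ranges of Asns, Ppp1r15a and Sesn2 cross 0.

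Gene length moved with the comparison, and the members are short. Across the genes tested, log2FC and gene length had a Spearman's rho of -0.34 over genes, which are not independent replicates, and the median length was 2139.5 bases for the members and 4113 bases for all genes tested. With the trend on length removed, the median of the members was 0.12 and that of all genes 0.020. Atf5 then had a log2FC of 0.70 and Atf3 of 0.87, with adjusted p of 0.152 and 0.185 in edgeR, whereas Ddit3 dropped to 0.37 and Atf4 to 0.21. Trib3 was then at -0.54, with an unadjusted p of 0.0301 and an adjusted p of 0.214 in edgeR, and Chac1 at -0.65.

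Upstream of ATF4, the kinase genes were not higher. Eif2ak2, which encodes the double-stranded RNA sensor PKR, was at 58.6 and 52.3 CPM for saline and 38.5 and 38.3 CPM for ADC/cmLumiOpto, with a log2FC of -0.53 (standard error 0.16, adjusted p = 0.143 in edgeR). Eif2ak3 (PERK, the sensor of the endoplasmic reticulum), Eif2ak1 (HRI, which relays heme and mitochondrial stress) and Eif2ak4 (GCN2, the sensor of uncharged tRNA) had overlapping groups and log2FC values of -0.22, -0.19 and -0.16 (-0.10, -0.089 and 0.015 with the length trend removed). The kinases act by phosphorylation, which mRNA does not show. Oma1, the inner-membrane protease that is activated when mitochondria depolarize and cleaves DELE1 to start the signal to HRI, went the other way. It had 8.88 and 8.16 CPM for saline and 18.1 and 15.6 CPM for ADC/cmLumiOpto. Its log2FC was 0.98 (standard error 0.25, adjusted p = 0.123 in the quasi-likelihood test of edgeR, 0.0260 in DESeq2 and 0.0411 in the exact test). With the length trend removed it was 0.78, with an adjusted p of 0.179 in edgeR. Dele1 had overlapping groups and a log2FC of -0.10 (adjusted p = 0.762 in edgeR). The activation of the protease is not shown by mRNA either. Among 9 genes of eIF2, its exchange factor eIF2B and the constitutive phosphatase subunit, Eif2b4 alone had an unadjusted p under 0.05 in edgeR. It was higher, as were 11.0% of all genes tested at that p, with a log2FC of 0.58 and an adjusted p of 0.171. Eif2s3x and Eif2s1, subunits of eIF2 itself, had log2FC values of -0.21 and 0.25.

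The further pathway genes were 57 tested of 59, in 6 lists (Slc7a3 and Fgf21 did not pass the expression filter). In the quasi-likelihood test of edgeR 0 of them were called, 4 were higher and 11 lower at an unadjusted p under 0.05, and the groups did not overlap for 7 that were higher and 26 that were lower. Over all genes tested the shares were 11.0% and 12.2% at the unadjusted p and 28.1% and 28.8% without overlap. Their median log2FC was -0.13, below that of all genes. The amino acid transporters had a median of -0.33, which was -0.12 with the length trend removed, and 3 of 8 tested genes were lower at an unadjusted p under 0.05 (all genes, 12.2%). Slc7a11, the cystine importer that feeds glutathione synthesis, was at 126.5 and 239.3 CPM for saline and 38.5 and 46.3 CPM for ADC/cmLumiOpto. Both treated values were far below both saline values, although the saline samples differed from each other. This amounted to a log2FC of -2.11 (standard error 0.32, 4.31-fold lower, adjusted p = 0.116 in the quasi-likelihood test of edgeR), and DESeq2 and the exact test called it, with adjusted p of 5.05e-08 and 3.54e-06. Leaving out single samples gave -2.51 to -1.57, and the value was -1.78 with the length trend removed. Slc1a4 and Slc7a1, which import neutral and cationic amino acids, had log2FC values of -0.67 and -0.51 with adjusted p of 0.143 and 0.147 in edgeR, and of -0.69 and -0.22 with the length trend removed.

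The aminoacyl-tRNA synthetases, which charge tRNAs and of which many are ATF4 targets, were lower by small amounts. Of 12 genes, 11 had a negative log2FC, 10 had treated samples that were both below the saline samples, and 3 had an unadjusted p under 0.05 in edgeR, where the background in the lower direction was 28.8% and 12.2%. Their median was -0.19. Eprs was at 240.3 and 247.2 CPM for saline and 170.8 and 173.9 CPM after treatment, Iars at 122.4 and 118.3 against 78.2 and 89.9 CPM, and Aars at 185.0 and 184.1 against 137.0 and 137.9 CPM. The replicates of each gene were close, and the log2FC values were -0.50, -0.52 and -0.43 with adjusted p of 0.142, 0.148 and 0.173 in edgeR. These genes are long (median 5320 bases), and with the length trend removed their median was -0.11. The values of Eprs, Iars and Aars were then -0.13, -0.44 and -0.19.

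Of 9 enzymes of amino acid and one-carbon synthesis, 1 was lower at an unadjusted p under 0.05 in edgeR (all genes, 12.2%). It was Aldh18a1, which starts proline synthesis, at 81.6 and 79.3 CPM for saline and 63.6 and 49.3 CPM for ADC/cmLumiOpto, a log2FC of -0.51 with an adjusted p of 0.176. Shmt2 and Psat1, of the serine and glycine route, had log2FC values of -0.25 and 0.35. Among 13 other targets and partners of ATF4 and CHOP, 2 were higher and 3 lower at an unadjusted p under 0.05, beside 11.0% and 12.2% of all genes. Cebpg, a C/EBP protein that dimerizes with ATF4 on the element searched in the promoters, had 48.5 and 29.6 CPM for saline and 80.9 and 74.7 CPM for ADC/cmLumiOpto (log2FC 0.99, standard error 0.25, adjusted p = 0.123 in edgeR, 0.0106 in DESeq2). The stress-induced chromatin protein gene Nupr1 had a log2FC of 0.64, or 0.49 with the length trend removed. Its adjusted p was 0.123 in the quasi-likelihood test of edgeR, 0.0293 in DESeq2 and 0.0679 in the exact test. Bcl2l11, which encodes the pro-apoptotic BIM and is activated by CHOP, was lower, at 123.6 and 125.8 against 68.7 and 82.3 CPM (log2FC -0.72, adjusted p = 0.123 in edgeR, 0.0117 in DESeq2). The other genes that were lower at an unadjusted p under 0.05, named after their values were seen, were Stc2 and Ero1a, with log2FC values of -1.13 and -0.86.

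**Figure D4:**
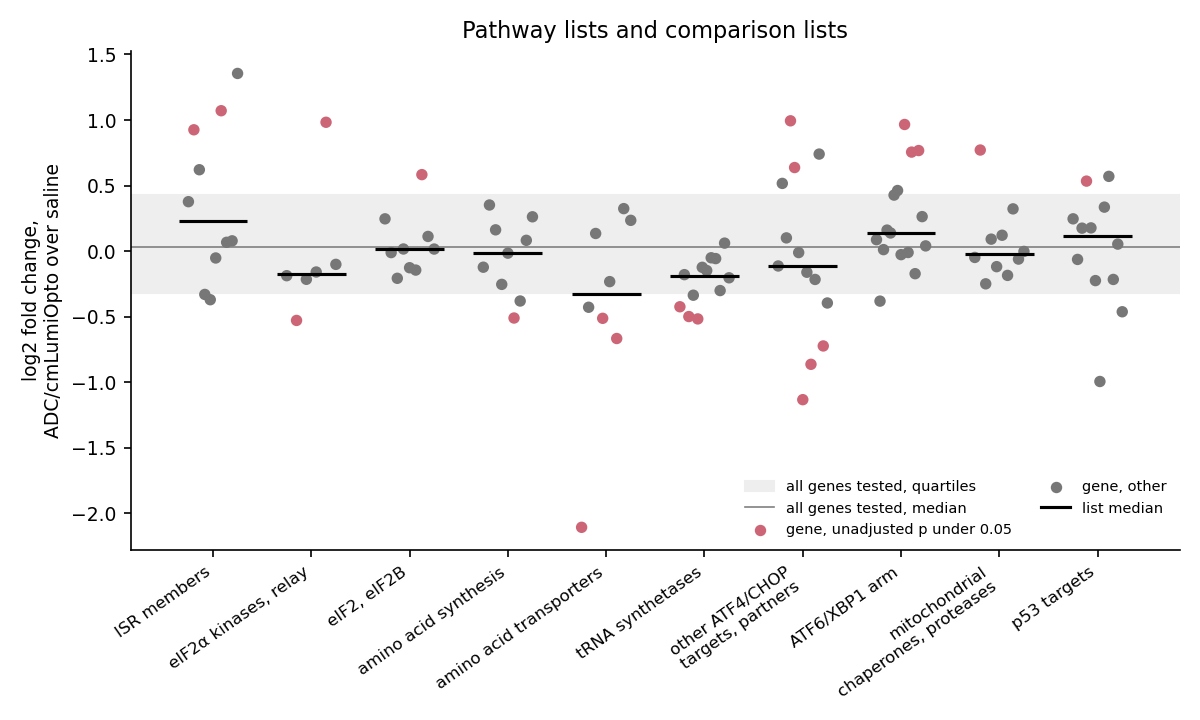
Log2 fold change (ADC/cmLumiOpto over saline) of each tested gene in the 10 members, the 6 further pathway lists and 3 comparison lists, with list medians as black lines and the quartiles of all genes tested in grey. The 4 highest members stand above the grey band, the median of the 8 transporters is -0.33, and that of the 12 tRNA synthetases is -0.19.

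Neighbouring stress programs were set beside the members. The ATF6 and XBP1 arm of the unfolded protein response, which raises chaperones of the endoplasmic reticulum, had a median of 0.14 over 15 genes (0.21 with the length trend removed), with 3 higher and 0 lower at an unadjusted p under 0.05 in edgeR (all genes, 11.0% and 12.2%). The groups did not overlap for 5 higher and 2 lower (all genes, 28.1% and 28.8%). Herpud1, a degradation factor that ATF4 also activates, was at 69.6 and 48.6 CPM for saline and 107.5 and 92.0 CPM for ADC/cmLumiOpto, a log2FC of 0.76 (adjusted p = 0.137 in edgeR). Creld2 and Sdf2l1 had log2FC values of 0.77 and 0.97 (0.46 and 0.62 with the length trend removed), and for Sdf2l1, where ADC/cmLumiOpto 1 was at 73.3 CPM and ADC/cmLumiOpto 2 at 34.2 CPM, the lowest value with 1 sample left out was 0.32. Mitochondrial chaperones and proteases (10 genes), some of them targets of ATF5, had a median of -0.026 (-0.12 with the length trend removed). Hspe1 was the 1 gene with an unadjusted p under 0.05 in edgeR, and it was higher (all genes, 11.0%). It had 116.5 and 120.5 against 256.0 and 148.4 CPM (log2FC 0.77, adjusted p = 0.167 in edgeR, lowest value with 1 sample left out 0.33, length trend removed 0.47). The p53 targets (12 genes), a program known to act on Gdf15 and Sesn2 too, had a median of 0.11. Bax, the pore-forming effector of apoptosis, had 39.1 and 41.0 against 60.0 and 55.9 CPM and a log2FC of 0.53 (adjusted p = 0.139 in edgeR), or 0.26 with the length trend removed. Plk2 and Sesn1, the next by p, had values of -0.46 and 0.34, and Yme1l1 and Hspa9, the next among the mitochondrial genes, 0.32 and -0.25. In each of these 3 programs 0 genes were called by the quasi-likelihood test of edgeR with the expression filter, and 0 by the exact test. Without that filter the quasi-likelihood test called 3 genes of the ATF6 and XBP1 arm, 1 mitochondrial gene and 0 p53 targets. The background there was 4.79% of all genes higher and 4.05% lower. DESeq2 called 1 gene higher, Herpud1 (adjusted p = 0.0334), and 0 lower, against 3.78% and 5.05% of all genes tested.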

How the data were processed

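Poly(A) RNA of 2 saline and 2 ADC/cmLumiOpto samples was analysed. As deposited by the authors, the values were raw read counts for each gene, whole numbers that were not normalised. The methods name HISAT2 and GRCm38, whereas the submitters' processing notes name HISAT2 and mm39. Listed positions matched GRCm38 annotation (GENCODE M21) for 1472 of 52073 shared identifiers and are given as deposited. Promoter windows are from RefSeq (GRCm38.p6). The counting program is not given in the sources used here, nor is its strand setting.

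Counts were analysed in R 4.3.3 with edgeR 4.0.16: filterByExpr (minimum count 10, minimum total 15), TMM (factors 0.973 to 1.04), estimateDisp, glmQLFit and glmQLFTest over 15320 genes, with Benjamini-Hochberg adjustment and a threshold of 0.05. Standard errors are the size of the log2 fold change divided by the square root of F. Alternatives were DESeq2 1.42.0, the edgeR exact test, scaling by upper quartile or by library size alone, a minimum of 10 counts per sample or of 1 count over all samples, protein-coding genes alone, a replicate block, removal of the length trend, and single samples left out. The length trend was a lowess curve (span 0.3) removed through offsets. The procedure was tested on simulated counts.

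An exact permutation test of 2 against 2 samples cannot pass the threshold, so p-values come from the fits across all genes. Replicates differed by more than sampling noise (chi-square per gene 26.1 in the saline pair and 55.6 in the treated pair). Same-numbered samples came from separate mice and shared only a number. The text names the 10 members, the 4 eIF2α kinases and the 3 genes of each list with the smallest p. Dele1, Stc2 and Ero1a were named outside this rule. The members and lists were chosen with earlier results of these data known.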

Additional observations from a re-analysis of the deposited data

How the results depend on the processing

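Of 129 values of single members under the alternatives, 123 kept their direction. The 6 that turned were Asns under upper-quartile normalization (0.033), Ppp1r15a with the length trend removed (-0.030), and Asns (-0.16 to 0.040), Ppp1r15a (-0.25 to 0.33) and Sesn2 (-0.18 to 0.29) when samples were left out. Genes called at an adjusted p under 0.05 went from 0 to 579 higher and 774 lower in DESeq2, 606 and 564 in the edgeR exact test, and 1224 and 1035 without the expression filter. Members called higher went to 2 in each of these, and other pathway genes to 3 higher and 3 lower, 2 and 2, and 3 and 5. The replicate block gave 308 genes higher and 299 lower, 1 member higher (Atf5, adjusted p = 0.0393 in edgeR), and 1 other pathway gene higher and 1 lower. The correlation of the deviations of same-numbered samples was 0.099, and with 2 pairs it does not show a pairing. With each sample left out, 0 to 164 genes were called higher and 0 to 54 lower, 0 members, and 0 to 1 other pathway genes lower, the highest count each time without saline 1. Without saline 2, 10 genes were called lower, and without ADC/cmLumiOpto 1, 5 higher. The lone sample of a group is there assumed to vary like the pair. The median of the members was 0.12 with at least 10 counts in every sample (where Gdf15 was not tested), 0.12 with the length trend removed, and 0.097 (without saline 1) to 0.43 (without saline 2) over the samples left out. The median of the other pathway genes was -0.041 under upper-quartile normalization and -0.13 to -0.093 with samples left out. DESeq2 gave no adjusted p for Gdf15. Depth limits Gdf15, which had 2 to 22 counts per sample. The cause of the differences between tests was not tested.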
